A study of Mus musculus with 2 samples.

Results

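Type A intercalated cells are the acid-secreting cells of the kidney collecting duct. They pump protons into the urine with a vacuolar ATPase (V-ATPase) on the apical membrane and return bicarbonate to the blood through the basolateral chloride-bicarbonate exchanger Slc4a1 (AE1). The neighbouring type B cells place the pump on the opposite side and use the exchanger Slc26a4 (pendrin), while principal cells handle water and sodium. The transcription factor Foxi1 drives the intercalated programme in mice, and Notch signalling sets the split between intercalated and principal cells.

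The cells came from 2 single-cell 3' RNA libraries of whole mouse kidney, one from Kif3aΔTub mice (knockout) and one from WT mice, both aged 5 weeks. Kif3a is a kinesin-2 motor subunit needed to build the primary cilium, and the Cre driver behind the tubular deletion is not given in the sources used here. Per the series title, the study asked how factors that promote cachexia link chronic kidney disease to muscle wasting. Each genotype is 1 library, so no difference below has a replicate check, no p-value was computed, and every interval is a 95% interval for counting error only.

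Cells were chosen by their own counts of unique molecular identifiers (UMIs). A barcode was kept when it held 500 UMIs or more from 200 genes or more and under 50% of its UMIs were mitochondrial. A kept cell was called type A when it had at least 3 UMIs of the V-ATPase subunit Atp6v1g3, when the principal cell genes Aqp2, Aqp3, Hsd11b2 and Fxyd4 made up under 0.3% of its UMIs, and when Slc4a1, Aqp6 and Kit together exceeded the type B genes Slc26a4, Insrr and Hmx2. This rule gave 467 type A cells among 11607 kept cells, 333 of 7236 in the knockout library and 134 of 4371 in the WT library. Their median depth was 9403 UMIs and 3215 genes in knockout cells, against 11685 UMIs and 3324 genes in WT cells. Mitochondrial transcripts took a median of 10.5% of UMIs in knockout type A cells and 24.4% in WT type A cells. Levels are therefore given as CPM, the UMIs of a gene per 1000000 of the non-mitochondrial UMIs summed over the cells, 3568827 UMIs in knockout and 1214764 in WT. No type A barcode was shared between the libraries. Scrublet marked 13 knockout and 9 WT type A cells as doublets (3.90% and 6.72%), and these were left in.

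Members near the limits of the rule were mostly knockout cells. Of the knockout cells, 10 had 3 to 4 UMIs of Atp6v1g3, with none in WT, and 22 knockout and 3 WT cells lay just outside at 1 to 2 UMIs. A principal gene share of 0.2 to 0.3% was found in 24 knockout and 0 WT members, and 19 knockout and 2 WT cells lay just outside at 0.3 to 0.4%. With that limit set at 0.1%, 262 knockout and 128 WT cells were left in the class. The type A sum led by 1 to 2 UMIs in 32 knockout and 4 WT members, while 27 knockout and 12 WT cells were tied. Cells with Atp6v1g3 and a principal gene share at or above the limit numbered 250 in knockout and 24 in WT. In 197 and 11 of these, in the same order, the type A sum led. They had medians of 29316 and 23439 UMIs and stayed outside the class.

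Among Atp6v1g3, Slc4a1, Aqp6 and Kit, Slc4a1 differed most between the libraries. Atp6v1g3 stood at 2844 CPM in knockout and 3075 CPM in WT type A cells, and Kit, a receptor tyrosine kinase of type A cells, at 366 and 458 CPM. Aqp6, a water and anion channel of intracellular vesicles, reached 994 CPM in knockout and 2709 CPM in WT. Slc4a1 was at 63.0 CPM in knockout and 994 CPM in WT. These genes chose the cells, so their levels are a description. The rule also fixes the low Slc26a4, which was at 13.5 CPM in knockout type A cells and 28.0 CPM in WT type A cells. Foxi1, which the rule did not use, was at 477 CPM in knockout and 468 CPM in WT, a log2 ratio of 0.03 (-0.11 to 0.17).

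The low Slc4a1 was also present when the gene had no part in the choice. With Aqp6 and Kit alone setting the type A sum, 332 knockout and 132 WT cells were chosen. Slc4a1 was then at 61.3 CPM in knockout and 993 CPM in WT, a log2 ratio of -4.02 (-4.23 to -3.81). Over all type A, type B and tied cells pooled, 491 in knockout and 289 in WT, it was at 43.0 CPM in knockout and 488 CPM in WT, while Kit was at 253 and 236 CPM. Choosing cells without Aqp6 left that gene at 1023 CPM in 297 knockout cells and 2776 CPM in 130 WT cells, a log2 ratio of -1.44 (-1.51 to -1.37).

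At equal depth the same order was seen cell by cell. Each cell was thinned to 3000 non-mitochondrial UMIs, which kept 323 knockout and 131 WT type A cells. Slc4a1 was then found in 17.3% of knockout cells and 89.3% of WT cells, and before thinning in 27.6% and 96.3%. Among proximal tubule cells at the same depth a Slc4a1 UMI was found in 0.161% of knockout and 0.140% of WT cells. All 3 of Slc4a1, Aqp6 and Kit were found in 10.2% of knockout and 68.7% of WT type A cells. Kit alone was found in 65.6% of knockout and 75.6% of WT cells, and Foxi1 in 67.2% and 69.5%.

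**Figure D1:**
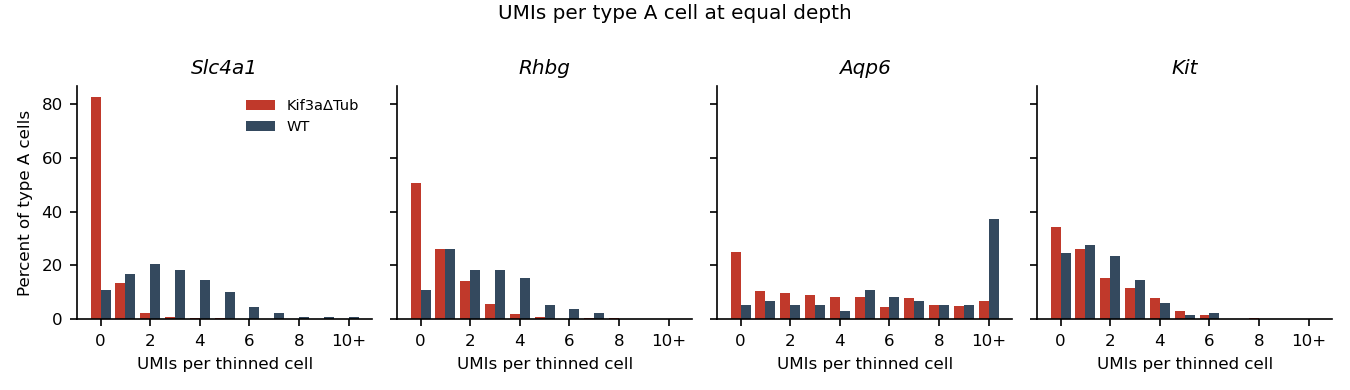
Share of type A cells (vertical axis, percent) by the number of UMIs of a gene in the cell (horizontal axis) after thinning each cell to 3000 UMIs, with Kif3aΔTub in red (323 cells) and WT in dark blue (131 cells). Slc4a1 was absent from most knockout cells and found in 89.3% of WT cells, Rhbg was shifted the same way, and Kit overlapped widely; Slc4a1, Aqp6 and Kit are genes of the rule.

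Type A cells made up 4.60% (4.13 to 5.11) of kept knockout cells and 3.07% (2.57 to 3.62) of kept WT cells, a ratio of 1.501 (1.22 to 1.85). Type B cells, chosen by the mirror rule, made up 1.81% in knockout and 3.27% in WT. Of type A and type B cells together, type A held 71.8% (67.4 to 75.8) in knockout and 48.4% (42.4 to 54.4) in WT. Over the pooled type A, type B and tied cells the type B genes of the rule were at 283 CPM in knockout and 624 CPM in WT for Slc26a4, 79.8 and 340 CPM for Insrr, and 364 and 520 CPM for Hmx2. Shares of kept cells also move with every other cell type. Principal cells made up 25.4% of kept knockout cells and 4.03% of kept WT cells. With a mitochondrial limit of 25% the ratio of type A shares was 1.35, and type A held 72.6% of type A and type B cells in knockout and 54.5% in WT. The part of dissociation and dead-cell removal in these shares was not tested.

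Kif3a was low in both libraries, with 52 UMIs or 14.6 CPM in knockout type A cells and 29 UMIs or 23.9 CPM in WT type A cells. The log2 ratio was -0.72 (-1.39 to -0.00), short of 2-fold. In principal cells the ratio was -1.20 (-1.76 to -0.53), in proximal tubule cells 0.46 (0.13 to 0.77) and over all kept cells -0.10 (-0.26 to 0.07). The counts come from transcript 3' ends, and whether these lie in the deleted part is not given in the sources used here, so they do not check the label. Of 25 measured kinesin-2 and cilium genes, Kif3a included, 0 were past 2-fold, and the median log2 ratio was -0.12.

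Over all 10574 genes with at least 20 UMIs in type A cells of both libraries together, 891 (8.43%) were at least 2-fold higher and 566 (5.35%) at least 2-fold lower in the knockout, with an interval that left out no change. The median gene sat at a log2 ratio of 0.04. Scaling by all UMIs, mitochondrial ones included, moved the median gene to 0.29 and the counts to 1353 higher and 322 lower. Subtracting an estimate of free RNA gave 725 higher and 699 lower. Without the 2-fold limit, 18.1% of genes had an interval wholly above 0 and 16.9% wholly below 0. Counts of list members below are read against these shares.

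The proton pump was lower as a group, though seldom by 2-fold. Of 21 measured V-ATPase genes outside the rule, 14 had an interval wholly below 0, against 16.9% of all genes, and 0 wholly above. At least 2-fold lower were 2 of them, and the median log2 ratio was -0.48. The 2 were both subunits restricted to specialised epithelia. Atp6v1c2, the C2 subunit of the cytosolic V1 sector, was at 422 CPM in knockout and 1227 CPM in WT (log2 -1.54, -1.65 to -1.44), and Atp6v1b1, the B1 subunit mutated in human distal renal tubular acidosis with deafness, was at 454 and 954 CPM (log2 -1.07, -1.18 to -0.96). Under 5 of the other 18 settings Atp6v1b1 was lower by less than 2-fold, the smallest log2 ratio being -0.82 when all UMIs set the scale. The catalytic subunit Atp6v1a was at 1319 CPM in knockout and 2544 CPM in WT. In the membrane sector, Atp6v0a4, also mutated in that disease, was at 853 CPM in knockout and 1570 CPM in WT, and Atp6v0d2 at 644 and 1073 CPM. Other subunits differed among themselves. Atp6v1e1, of the stalk, was at 1280 CPM in knockout and 2251 CPM in WT, Atp6v1h at 221 and 405 CPM, and Atp6v1b2, the second form of the B subunit, at 63.0 and 84.0 CPM. Atp6v1c1 was at 82.1 CPM in knockout and 81.5 CPM in WT, Atp6v1g1 at 479 and 511 CPM, and Atp6v0d1 at 56.0 and 51.9 CPM, each with an interval that held 0. Scaling by all UMIs moved the group's median to -0.23. Per thinned cell, V-ATPase subunits summed to a median of 133 per 10000 UMIs in knockout cells and 193 in WT cells, and 31.6% of knockout cells lay below the 5th percentile of WT cells.

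Forkhead factors such as Foxi1 bind a short core motif, and Foxi1 is known to activate the genes of several V-ATPase subunits in mice. Promoter windows, 250 bases before to 50 after the start, were taken from RefSeq for build GRCm38.p6 to show where such a core lies in pump and transport genes whose levels are given here. The letters TGTTTA and TGTTTG were searched on both strands, and their matches are in capitals. Of 32851 windows, 13.4% held TGTTTA, 18.2% held TGTTTG and 28.2% held either. Windows were found for 19 of 25 V-ATPase genes, of which 4 held a core, and for 12 of 26 transport genes, of which 5 did. The sequences are those of Atp6v1g3 at chr1:138273488-138273787, Atp6v1b1 at chr6:83742767-83743066 and the carbonic anhydrase gene Car12 at chr9:66713436-66713735, all on the plus strand. Car12 was at 386 CPM in knockout and 581 CPM in WT.
Atp6v1g3: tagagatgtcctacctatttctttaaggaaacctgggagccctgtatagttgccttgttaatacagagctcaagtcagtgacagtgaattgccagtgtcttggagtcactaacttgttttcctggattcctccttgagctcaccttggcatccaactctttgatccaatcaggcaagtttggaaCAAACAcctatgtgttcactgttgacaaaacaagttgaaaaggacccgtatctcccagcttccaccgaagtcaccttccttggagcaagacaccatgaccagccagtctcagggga
Atp6v1b1: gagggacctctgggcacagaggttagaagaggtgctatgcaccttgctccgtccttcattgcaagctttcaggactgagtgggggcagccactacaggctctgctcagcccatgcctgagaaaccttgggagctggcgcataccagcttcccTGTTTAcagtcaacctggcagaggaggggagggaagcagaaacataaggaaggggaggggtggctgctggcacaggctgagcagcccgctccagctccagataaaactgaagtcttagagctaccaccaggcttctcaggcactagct
Car12: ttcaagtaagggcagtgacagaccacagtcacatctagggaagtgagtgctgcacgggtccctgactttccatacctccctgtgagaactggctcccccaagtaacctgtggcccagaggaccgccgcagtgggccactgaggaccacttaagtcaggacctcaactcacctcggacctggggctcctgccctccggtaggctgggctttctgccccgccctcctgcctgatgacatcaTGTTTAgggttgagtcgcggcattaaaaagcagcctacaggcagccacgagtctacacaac
Atp6v1g3 holds TGTTTG on the minus strand, 60 bases before the start, Atp6v1b1 holds TGTTTA on the plus strand, 92 bases before it, and Car12 holds TGTTTA 5 bases before it. A match is a stretch of letters and shows no binding.

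Transporters that move acid, base, chloride and ammonia were lower in part. Of 19 measured members outside the rule, 5 were at least 2-fold lower and 0 at least 2-fold higher, and the median log2 ratio was -0.49. Slc26a7, a basolateral chloride-bicarbonate exchanger, was at 5.88 CPM in knockout (21 UMIs) and 96.3 CPM in WT (117 UMIs), a log2 ratio of -4.00 (-4.78 to -3.35). It was found in 1.24% of thinned knockout cells and 15.3% of thinned WT cells, and 5 WT cells held 44.4% of its WT UMIs. Rhbg, a basolateral ammonia transporter, was at 230 CPM in knockout and 757 CPM in WT (log2 -1.72, -1.85 to -1.58) and was found in 49.2% of thinned knockout cells and 89.3% of thinned WT cells. Its apical partner Rhcg was at 330 CPM in knockout and 640 CPM in WT.

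Bsnd, which encodes barttin, a subunit of basolateral chloride channels, was at 66.1 CPM in knockout and 170 CPM in WT (log2 -1.37). Carbonic anhydrase 2 (Car2), which supplies protons and bicarbonate inside the cell, was at 2210 CPM in knockout and 3270 CPM in WT. Atp1b1, the beta subunit of the sodium pump, was at 3184 CPM in knockout and 3296 CPM in WT. Another member past 2-fold, the carbonic anhydrase Car4, had few counts, at 2.80 CPM in knockout (10 UMIs) and 9.06 CPM in WT (11 UMIs in 5 cells). Its log2 ratio was 0.21 when cells were thinned, which left 1 UMI in knockout and 0 in WT.

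**Figure D2:**
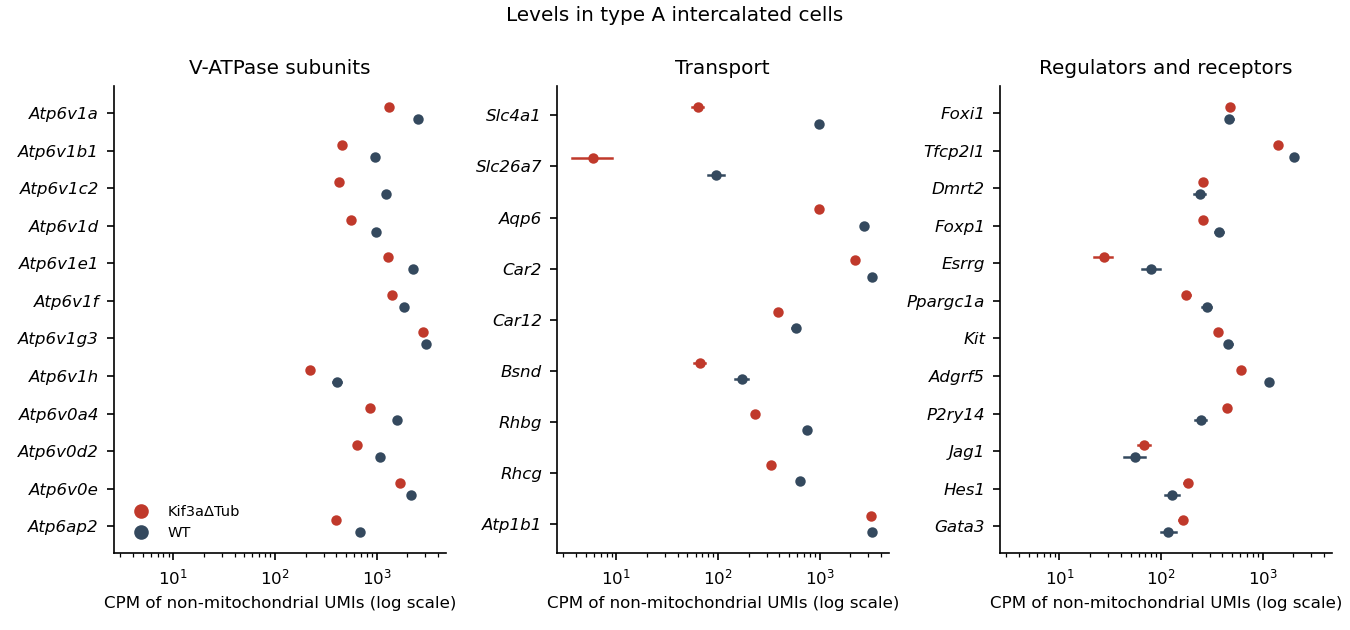
Level of V-ATPase, transport and regulator genes in type A cells, in CPM of non-mitochondrial UMIs on a log axis, with Kif3aΔTub (red) above WT (dark blue) and lines for exact Poisson intervals. Slc4a1 (63.0 against 994 CPM) and Slc26a7 (5.88 against 96.3 CPM) stand furthest apart, while Foxi1 (477 against 468 CPM) and Dmrt2 overlap.

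Regulators of the cell type did not move as a block. Of 19 measured transcription factor and Notch genes, 4 were at least 2-fold higher and 1 at least 2-fold lower, and the median log2 ratio was 0.30, or 0.04 with a mitochondrial limit of 25%. Dmrt2, a transcription factor found in type A cells, was at 258 CPM in knockout and 239 CPM in WT. Tfcp2l1, which acts with Foxi1 in intercalated cells, was at 1423 CPM in knockout and 2040 CPM in WT (log2 -0.52). Esrrg, a nuclear receptor that controls mitochondrial and transport genes, was the member lower by 2-fold, at 27.2 CPM in knockout and 79.9 CPM in WT (log2 -1.55, -1.98 to -1.13), and its coactivator Ppargc1a was at 177 and 280 CPM. The higher members were the principal cell factor Elf5 (22.4 CPM in knockout, 9.06 in WT), the Notch ligand Dll1 (17.9 and 7.41), and the receptors Notch2 (8.97 and 2.47) and Notch3 (9.81 CPM or 35 UMIs, and 0). Notch3 was at least 3.97-fold higher against a floor of 3 counts over the WT cells. The rule limits 4 of 10 principal cell markers. The other 6, of which Elf5 is one, summed to 382 CPM in knockout type A cells and 207 CPM in WT type A cells, which is 0.462 and 0.607 of the level over all kept cells. The 4 limited ones summed to 1031 CPM in knockout and 417 CPM in WT, with Aqp3 alone lower in the knockout, at 112 and 271 CPM. None of the 4 stayed past 2-fold under every setting. The log2 ratio was 0.07 for Elf5 with free RNA subtracted, 0.19 for Notch2 as a mean of CPM per cell and 0.50 for Dll1 with a mitochondrial limit of 25%. When the rule was applied again to thinned cells, Notch3 was left with 1 UMI in 260 knockout cells. Among the 323 knockout cells thinned without choosing again it was found in 2.79%.

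Of 10 measured genes of the type A list outside the rule, 1 (Slc26a7) was past 2-fold, and the median log2 ratio was -0.18, or 0.14 after thinning. The median sum of this list per thinned cell was higher in type B than in type A cells in both libraries. In thinned WT cells Spink8 was found in 61.1% of type A and 99.2% of type B cells. Adgrf5 (93.1% and 17.4%) and P2ry14 (48.1% and 0.826%) went the other way. Whether type A identity was kept was therefore not tested by this median. Of 5 measured genes of the type B list outside the rule, 2 were at least 2-fold lower (Oxgr1 and Bsnd) and 0 higher, with a median of -0.91. Neither of these 2 was found more often in type B than in type A cells. In thinned WT cells Oxgr1 was found in 73.3% of type A and 52.9% of type B cells, and Bsnd in 43.5% and 32.2%. Adgrf5, an adhesion receptor, was at 608 CPM in knockout and 1152 CPM in WT (log2 -0.92), while P2ry14, a receptor for UDP-glucose, was at 439 and 244 CPM (log2 0.84). Oxgr1, the receptor for alpha-ketoglutarate, was at 90.2 CPM in knockout and 418 CPM in WT (log2 -2.21, -2.42 to -2.01). It was found in 24.1% of thinned knockout and 73.3% of thinned WT type A cells. The kinases Wnk1 and Wnk4, regulators of chloride-coupled transport, were at 224 and 37.3 CPM in knockout and 589 and 85.6 CPM in WT, and these with Oxgr1 were the 3 lower members among 15 receptor and signalling genes. Of those 15, 1 was higher, the endothelin receptor Ednrb, at 6.45 CPM in knockout and 0.823 CPM in WT.

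Mitochondrial energy genes were lower throughout. All 26 measured nuclear genes of oxidative phosphorylation had intervals below 0, against 16.9% of all genes. Of the 26, 6 passed 2-fold on the low side and 0 on the high side, and the median log2 ratio was -0.81, between -0.93 and -0.56 under the other settings. Cytochrome c (Cycs) was at 745 CPM in knockout and 1775 CPM in WT, the complex I subunit Ndufs1 at 130 and 308 CPM, and the cytochrome oxidase subunit Cox7b at 1179 and 2426 CPM. Transcripts of the mitochondrial genome, set against non-mitochondrial UMIs, were at least 2-fold lower for 13 of 13 genes, with a median of -1.48. The limit on mitochondrial share entered the choice of cells, and this share also differs over all kept cells (medians 7.55% in knockout, 26.8% in WT). Per thinned cell the nuclear list summed to a median of 210 per 10000 UMIs in knockout and 380 in WT, and 76.2% of knockout cells lay below the 5th percentile of WT cells.

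Fuel genes followed in part. Among 21 measured fatty acid oxidation genes, 4 were at least 2-fold lower and 1 at least 2-fold higher (median -0.53). Acat1, of ketone and isoleucine metabolism, was at 164 CPM in knockout and 404 CPM in WT, and Etfa, an electron carrier, at 240 and 524 CPM. Slc25a20, the mitochondrial carnitine carrier, was the higher one, at 28.9 CPM in knockout and 5.76 CPM in WT. Of 18 measured glycolysis genes, 2 were lower and 1 higher (median -0.34, or -0.09 when scaled by all UMIs). The muscle isoform Pfkm was at 26.3 CPM in knockout and 67.5 CPM in WT, and the platelet isoform Pfkp at 80.7 and 32.9 CPM.

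Injury genes were higher in nearly every member. Of 20 measured genes of the tubular injury list, 17 were at least 2-fold higher and 1 lower, and the median log2 ratio was 2.35. Spp1, the secreted phosphoprotein osteopontin, was at 20938 CPM in knockout and 1501 CPM in WT (log2 3.80, 3.73 to 3.87). Clu, the chaperone clusterin, was at 3100 CPM in knockout and 214 CPM in WT (log2 3.85), the calcium-binding S100a6 at 694 and 24.7 CPM (log2 4.79), and the keratin Krt19 at 124 and 2.47 CPM (log2 5.42). The lower one was vimentin (Vim), at 12.1 CPM in knockout and 49.4 CPM in WT, but all 60 of its WT UMIs lay in 1 cell. For S100a6, 29 of 30 WT UMIs lay in 1 cell, and the 5 richest knockout cells held 48.3% of the knockout UMIs. For Clu the 5 richest knockout cells held 30.8%. Per thinned cell the list summed to a median of 223 per 10000 UMIs in knockout, with cells from 46.7 to 1820, and 40.0 in WT, with cells from 6.67 to 140. In the knockout, 94.4% of cells exceeded the 95th percentile of WT cells.

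Lcn2, the siderophore-binding defence protein NGAL, was at 1740 CPM in knockout type A cells (6210 UMIs) and at 0 UMIs in WT type A cells. The knockout UMIs were spread over 184 cells, with 53.8% in the 5 richest. Against a floor of 3 counts over the WT cells it was at least 705-fold higher. It was found in 35.3% of thinned knockout cells and 0 of 131 thinned WT cells, with an exact upper limit of 2.78%. In the knockout library it was also found in 22.7% of proximal tubule cells and 25.7% of macrophages at the same depth. Its type A level was 0.385 of that over all kept knockout cells and 2.17 times the level that free RNA would give. That level rests on the median of 16 markers whose own ratios ran from 0.0181 to 4.12 in knockout and from 0.0565 to 1.40 in WT. Spp1 was found in 98.8% of thinned knockout type A cells, 94.1% of type B cells, 99.8% of proximal tubule cells and 74.3% of macrophages of that library. Clu was found in 81.1%, 63.0%, 19.9% and 18.5% in the same order, and the secreted WAP-domain protein Wfdc2 in 87.3%, 89.9%, 51.4% and 20.2%. The median depth before thinning was 4808 UMIs in knockout macrophages and 8341 in knockout proximal tubule cells.

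Of 14 measured innate defence genes, Lcn2 included, 8 were at least 2-fold higher and 1 lower, with a median of 1.89. Wfdc2 was at 2016 CPM in knockout and 196 CPM in WT (log2 3.36), and Pigr, the receptor that carries immunoglobulin across epithelia, at 101 and 1.65 CPM (log2 5.62). Defb1, a beta-defensin, was named after its values were seen: it was at 3305 CPM in knockout and 3026 CPM in WT. Wfdc15b was the lower one, at 71.2 CPM in knockout and 243 CPM in WT.

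**Figure D3:**
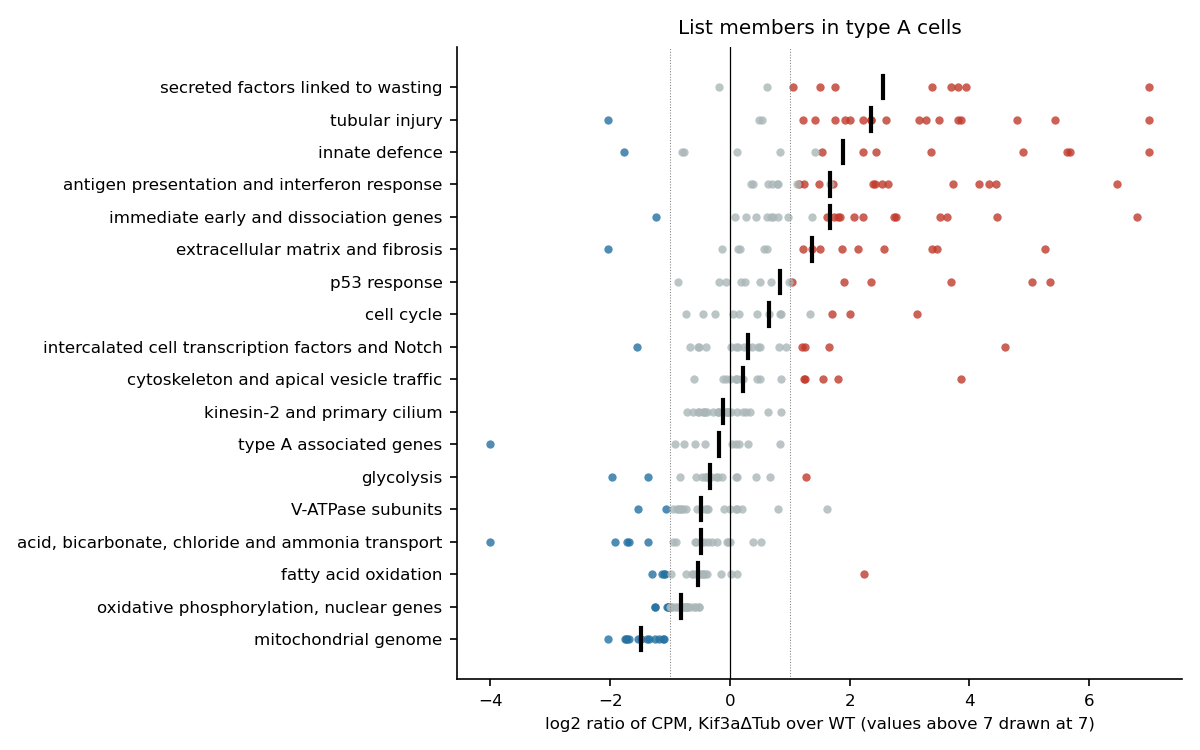
Log2 ratio of CPM, Kif3aΔTub over WT, for every measured member of 18 gene lists in type A cells, with red points at least 2-fold higher, blue points at least 2-fold lower, grey points short of that, and black bars for list medians. The injury list sits at a median of 2.35 and the nuclear oxidative phosphorylation list at -0.81; points with 0 WT UMIs depend on the 0.5 UMIs added.

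Secreted factors linked to wasting, the theme of the series title, share Spp1 and Lcn2 with the injury list. Of 10 measured members 8 were at least 2-fold higher and 0 lower; the median log2 ratio was 2.56, or 1.63 with genes at 0 in WT set to their bound and 0.77 after thinning. Tgfb2, a growth factor of the TGF-beta family, was at 38.1 CPM in knockout and 18.1 CPM in WT, and its relative Tgfb1 at 12.3 and 3.29 CPM. Tnfsf12 (TWEAK) was at 17.4 CPM in knockout and 5.76 CPM in WT, and the matricellular factor Ctgf at 12.6 and 0.823 CPM. Gdf11 was at 6.16 CPM in knockout (22 UMIs in 12 cells) and 0 in WT, and was found in 0.619% of 323 thinned knockout cells. When the rule was applied again to thinned cells, no UMI of Gdf11 was left. Tgfb2 was then at a log2 ratio of 0.00 and Ctgf at 0.95. The cytokine Ctf1 was near level, at 39.2 CPM in knockout and 44.5 CPM in WT, and Metrnl was at 27.2 and 17.3 CPM. Gdf15, a stress cytokine that curbs appetite, was at 37.3 CPM in knockout and 2.47 CPM in WT, but this was 0.977 times the level that free RNA would give in the knockout.

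Stress-linked lists were higher as well. Of 22 measured immediate early and dissociation genes, 12 were at least 2-fold higher and 1 lower, with a median of 1.68. The lower one was Klf2, for which 67 of 70 WT UMIs lay in 1 cell. Socs3, the feedback inhibitor of cytokine signalling, was at 138 CPM in knockout and 0.823 CPM in WT, or 492 UMIs against 1 UMI. Among thinned knockout cells it was in 27.9% of type A, 10.1% of type B, 2.57% of proximal tubule cells and 22.3% of macrophages. In knockout principal cells Socs3 was at 176 CPM, above its type A level. Fos was at 51.3 CPM in knockout and 4.12 CPM in WT, and Klf4 at 81.3 and 11.5 CPM. Such genes also respond to tissue handling, and the part of handling was not tested. The p53 list had 6 of 14 measured genes higher and 0 lower (median 0.84, or 0.42 with free RNA subtracted), with the cell cycle inhibitor Cdkn1a at 200 CPM in knockout and 38.7 CPM in WT.

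Of 21 measured antigen and interferon genes 13 were at least 2-fold higher and 0 lower, with a median of 1.68, which became 0.78 after free RNA was subtracted. The class II genes among them were Cd74 at 124 CPM in knockout and 5.76 CPM in WT, H2-Aa at 36.2 CPM and 0, H2-Ab1 at 44.6 and 1.65 CPM and H2-Eb1 at 36.7 and 1.65 CPM. In the knockout these stood at 0.893, 0.827, 1.07 and 0.832 times the level that free RNA would give, in the same order, and 187 of 444 Cd74 UMIs lay in 1 knockout cell. Macrophage markers summed to 290 CPM in knockout and 2.47 CPM in WT type A cells, with 0 of 10 at 0 in knockout and 8 of 10 at 0 in WT. Irf7, an interferon-response factor, was at 16.3 CPM in knockout and 0.823 CPM in WT, and at 4.94 times the free RNA level in the knockout. The matrix list had 9 of 15 measured genes higher and 1 lower (median 1.38, or 0.33 after subtraction), the lower one being Vim again, with its WT UMIs in 1 cell. Timp2, a metalloproteinase inhibitor, was at 92.5 CPM in knockout and 20.6 CPM in WT (log2 2.14, or 0.54 after thinning).

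Of 17 measured genes of the cytoskeleton and vesicle traffic, 5 were higher and 0 lower (median 0.22), led by the tubulin Tuba1a at 125 CPM in knockout and 8.23 CPM in WT and the actin-binding peptide Tmsb4x at 4466 and 1517 CPM. Of 13 measured cell cycle genes, 3 were higher and 0 lower, all at low level. Their median was 0.65, and it lay between -0.12 with principal genes under 0.1% and 1.43 with a mitochondrial limit of 25%. Top2a was at 10.7 CPM in knockout and 0.823 CPM in WT, with 34 of 38 knockout UMIs in 1 cell. Mki67 and Cdk1 changed sign when cells were thinned, each on 2 knockout UMIs and 1 WT UMI.

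**Figure D4:**
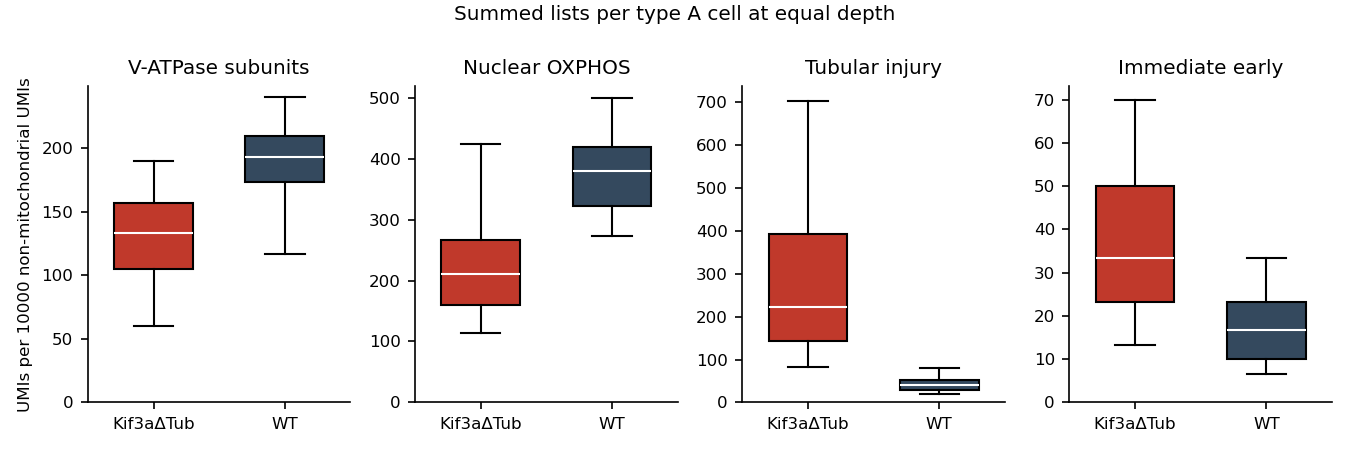
Summed UMIs of 4 lists per type A cell, per 10000 non-mitochondrial UMIs after thinning, with Kif3aΔTub left of WT; boxes give quartiles, white lines medians and whiskers the 5th to 95th percentiles of 323 and 131 cells. Medians were 133 against 193 for V-ATPase subunits, 210 against 380 for nuclear OXPHOS, 223 against 40.0 for tubular injury and 33.3 against 16.7 for immediate early genes.

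Beyond the lists, genes were ranked when they reached 30 CPM and at least 0.5 times the level of all kept cells in the higher library, which leaves out Lcn2. Fgg, the fibrinogen gamma chain, had 410 UMIs or 115 CPM in knockout and 0 UMIs in WT, at least 46.5-fold higher. Its UMIs lay in 45 cells, with 49.3% in the 5 richest. Sytl2, of vesicle traffic, was at least 22.2-fold higher, with 196 UMIs in 73 knockout cells and 0 UMIs in WT. Myl9, a myosin light chain, had 0 WT UMIs too, but 73.1% of its knockout UMIs lay in 5 of 333 cells. Rasl11a was at 215 CPM in knockout and 5.76 CPM in WT (log2 5.12), with UMIs in 220 knockout and 6 WT cells. Igfbp2, Basp1, Muc4, Il18r1, Socs3, Pigr and Krt19 were also among the 12 highest, and 84.5% of Igfbp2 UMIs lay in 5 knockout cells.

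The lowest ratios included metabolic genes. After Slc26a7 came Pygm, the muscle glycogen phosphorylase, at 2.80 CPM in knockout and 36.2 CPM in WT (log2 -3.64), and Pln, the phospholamban that restrains the calcium pump, at 4.48 and 42.8 CPM. Acot3, a peroxisomal thioesterase, was at 10.7 CPM in knockout and 98.8 CPM in WT. The nuclear receptor Rorb was at 12.6 CPM in knockout and 79.0 CPM in WT. Cbr2, a carbonyl reductase, was at 34.2 CPM in knockout and 204 CPM in WT (log2 -2.58, -2.90 to -2.26). Tm4sf1, Naalad2, Actn2, Klkb1 and Rapgef4 were also among the 12 lowest. Of the 104 WT UMIs of Tm4sf1, 103 lay in 1 cell, and its log2 ratio was 2.87 after thinning, against -3.38 before.

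Much of the difference between libraries was also seen in type B cells. There 612 of 9338 genes (6.55%) were at least 2-fold higher and 503 (5.39%) at least 2-fold lower in the knockout. Of 618 genes higher in type A cells and measured in type B cells, 333 were higher in type B cells too, which is 53.9% of these and 54.4% of the 612. Of 438 lower ones, 240 were lower in both, 54.8% of these and 47.7% of the 503. Both types come from the same libraries and share their free RNA. Their depth differed, with medians of 9403 UMIs in type A and 12945 in type B cells of the knockout, and 11685 and 12211 in WT. Over the genes measured in both types, the V-ATPase median was -0.55 in type A and -0.52 in type B cells (19 genes), the injury median 2.35 and 2.41 (19 genes), and the nuclear oxidative phosphorylation median -0.81 and -0.52 (26 genes).

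Type A and type B cells were also set against each other within each library. The pools differ in depth, so the counts of calls do not compare the libraries, and no difference between them was tested. Of genes the rules did not use, 574 (5.37%) were at least 2-fold higher in type A than in type B cells in the knockout and 414 (4.63%) in WT, while 206 (1.93%) and 299 (3.34%) were at least 2-fold lower. In both libraries at once, 125 of 8848 genes (1.41%) were higher and 110 (1.24%) lower. Of the 398 genes higher in WT and measured in both, 125 were at least 2-fold higher in the knockout, against 5.37% of all genes. Of the 286 lower ones, 110 were at least 2-fold lower in the knockout, against 1.93%. Dmrt2 was at 258 CPM in type A and 26.4 CPM in type B cells of the knockout (log2 3.27), and at 239 and 1.59 CPM in WT (log2 6.91). Mme, the peptidase neprilysin, was at 747 and 80.8 CPM in the knockout and at 1410 and 73.1 CPM in WT. Fabp4, a fatty acid carrier, was also among the 12 highest, but 1025 of its 1150 UMIs in knockout type A cells lay in 1 cell. Tmem158, found in 302 knockout and 41 WT type A cells, was at 1097 and 166 CPM in the knockout and at 49.4 and 0.795 CPM in WT.

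Type A genes were also measured in type B cells. P2ry14 was at 193 CPM in knockout and 6.36 CPM in WT type B cells, and Adgrf5 at 181 and 59.6 CPM. Defb1 was at 1072 CPM in knockout and 115 CPM in WT type B cells. After thinning, P2ry14 was found in 41.2% of knockout and 0.826% of WT type B cells, and Adgrf5 in 26.1% and 17.4%. Genes of the rule stayed low in type B cells, as the rule fixes, with Kit at 31.5 CPM in knockout and 27.0 CPM in WT type B cells and Aqp6 at 69.9 and 73.1 CPM. On the type B side, Syt7, a calcium sensor of exocytosis, was at 0 CPM in type A and 43.6 CPM in type B cells of the knockout, and at 1.65 and 149 CPM in WT. Igfbp5, a binding protein of insulin-like growth factors, was at 33.6 and 348 CPM in the knockout and at 75.7 and 1518 CPM in WT.

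**Figure D5:**
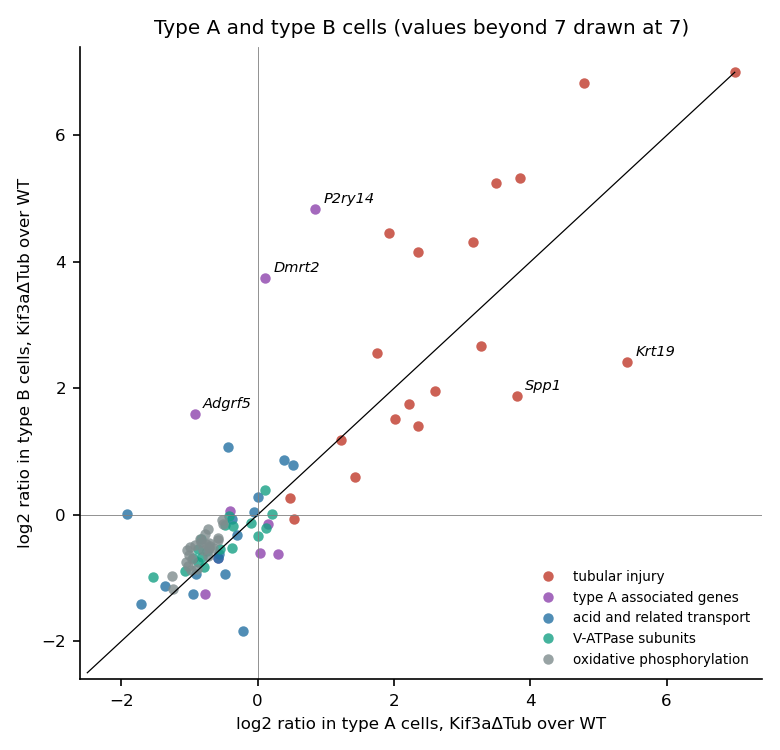
Log2 ratio, Kif3aΔTub over WT, in type A cells (horizontal axis) and type B cells (vertical axis) for members of 5 lists with at least 20 UMIs in each type; the line marks equal ratios. Injury genes sit high on both axes, while P2ry14, Dmrt2 and Adgrf5 sit above the line; points at the edge and genes with 0 WT UMIs depend on the 0.5 UMIs added.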

How the data were processed

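Per the labels' protocols, kidney tissue was dissociated on ice with a cold active protease, red cells were lysed, dead cells were removed with a kit and single cells entered a 10x Chromium 3' v3 workflow. The deposited matrices hold UMI counts, not normalized, made with Cell Ranger 3.1.0 per the file headers; Cell Ranger 3.0.2, Seurat 3.1.1 and build mm10 stand in the submitters' processing notes. Each class was pooled into 1 sum of UMIs per gene and library, scaled by its non-mitochondrial total. Log2 ratios are knockout over WT with 0.5 UMIs added to each sum, with exact conditional Poisson intervals; levels have exact Poisson and shares exact Clopper-Pearson intervals at 95%. A gene was measured when both libraries together held 20 UMIs or more of it. The members and lists were chosen with earlier results of these data known.

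The type B rule mirrors the type A rule. Principal cells had no Atp6v1g3 UMI and at least 0.3% principal genes, proximal tubule cells had at least 0.2% of proximal markers, and macrophages at least 10 UMIs of macrophage markers. The free RNA level of a gene is its level over all kept cells times the median ratio, type A over all kept cells, of 16 proximal tubule and thick ascending limb markers, 0.177 in knockout (0.0181 to 4.12 over the markers) and 0.0738 in WT (0.0565 to 1.40). Floors for 0 counts use 3 UMIs, 0.841 CPM in knockout and 2.47 CPM in WT. Cells were thinned with a fixed seed, and 10 knockout and 3 WT type A cells under 3000 UMIs were left out of thinned shares and sums. Thinned ratios come from a second thinning, of kept cells to 3000 UMIs with mitochondrial ones included. The rule was then applied again, which left 260 knockout and 118 WT type A cells. Where a setting changed the cells or their counts, list medians cover the members that still held 20 UMIs. List symbols are those of the files, and the lists hold 20 groups. Named genes were members of the pump, transport, regulator, type A and type B lists, up to 5 members of other lists by size of ratio, all measured secreted factors, the 12 highest and 12 lowest over all genes, and the 12 at each end between type A and type B cells. Some genes that this rule names are not reported here. The 12 over all genes needed at least 30 CPM, 30 UMIs and 0.5 times the level of all kept cells in the higher library. Members behind a count of 5 or fewer were named as well, and Defb1 and those in the closing section after their values were seen. Python 3.11.15, scipy 1.17.1, scanpy 1.11.5 and edgeR 4.0.16 (TMM factors only) were used, and the ratio step was tested on simulated data. Alternatives numbered 18, of which 15 were planned and 3 (choosing without Slc4a1, choosing without Aqp6, and type A cells of at least 5000 UMIs) were added after seeing the data.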

Additional observations from a re-analysis of the deposited data

Results flagged for a closer look

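Of the genes measured in both types, 7 were at least 2-fold higher in one intercalated type and at least 2-fold lower in the other, knockout over WT, each with an interval that left out 0, and 6 of them are given here. The difference between the types was not tested, since each type has 1 library per genotype. Slc12a3, the sodium-chloride cotransporter of the distal convoluted tubule, had log2 ratios of -1.49 in type A and 4.01 in type B cells, a difference of -5.51. The transcription factor Klf2 had -1.23 in type A and 3.30 in type B cells, a difference of -4.53. Rprm had -1.87 and 1.74 (difference -3.61) and Emcn, an endothelial mucin, -1.10 and 2.10 (-3.20), each type A before type B. Rnase1 ran the other way, with 1.91 in type A and -1.96 in type B cells (3.86), as did Herc3 with 1.11 and -1.26 (2.37). Slc12a3 was at 26.1 CPM in knockout and 73.3 CPM in WT type A cells, and Klf2 at 24.7 and 57.6 CPM. In WT type A cells 1 cell held 79 of the 89 UMIs of Slc12a3, 67 of the 70 of Klf2, all 29 of Emcn and all 3 of Rnase1. In knockout type A cells the 5 richest cells held 95.7% of the UMIs of Slc12a3, 92.5% of Emcn, 71.05% of Rnase1, 43.6% of Rprm, 33.0% of Klf2 and 12.9% of Herc3. Levels in WT type B cells were low for Slc12a3 (2.39 CPM), Klf2 (5.56 CPM), Rprm (6.36 CPM) and Emcn (9.54 CPM). How type B UMIs were spread over cells was not examined.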

How the results depend on the processing

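No paired analysis was possible because each genotype is 1 library. The ratio of type A shares stayed between 1.24 and 1.56 under the settings that change the cells. The type A share of type A plus type B cells was 23.4 percentage points higher in knockout, and 18.2 points with a mitochondrial limit of 25%. Genes at least 2-fold higher numbered 891, and 1353 when scaled by all UMIs, 317 when thinned and 380 with at least 100 UMIs per gene; genes at least 2-fold lower numbered 566, and 322, 263 and 237 in the same order. The last 2 settings have fewer counts or genes by construction. With principal genes under 0.1%, 650 genes were higher and 509 lower, and 47 of 167 gene values moved.

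Of 360 list medians 338 stayed within counting error, 22 moved and 0 called ones changed sign. Of 3006 gene values 2663 stayed, 331 moved and 12, all of genes called past 2-fold, changed sign. Dropping the low-count filter or raising it to 100 UMIs per gene does not enter a gene's ratio. All 167 values under each of those settings therefore stayed by construction. Sign changes of genes that were not called were counted among those that stayed or moved. Thinning gave Tm4sf1 2.87 (9 UMIs in knockout and 0 in WT), Car4 0.21 (1 and 0) and Gdf11 -1.37 (0 UMIs in both libraries). It gave Cdk1 and Mki67 -0.64 each (2 UMIs in knockout and 1 in WT), and Mki67 was -1.49 with principal genes under 0.1%. Subtracting free RNA gave Gdf15 -3.70, H2-Aa -1.56, Cd74 -4.14, H2-Eb1 -2.99 and Acta2 -1.56. Choosing cells without Slc4a1 gave Slc26a4 2.07. For these 12 the cause was not tested. Counts of 0 limit WT type A levels only to 2.47 CPM.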
